A study of Mus musculus with 9 samples.

Results

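The 47 genes described here encode proteins that copy chromosomal DNA or divide the chromosomes at mitosis. They were taken from a named list and found by symbol among the 21965 genes counted in spleen RNA of mice. The list holds 25 genes of DNA replication, 20 genes of mitosis and 2 others, Brca1 (DNA repair) and Ezh2 (the methyltransferase of a gene-silencing complex). All 47 were matched, and 41 had enough reads to be tested.

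The study sequenced RNA from 9 libraries in 3 groups of 3, all from mice aged 16 weeks. BWF1 females are the F1 of the NZB and NZW strains and develop a lupus-like disease, whereas BWF1 males and BALB/c females served as non-prone groups. The labels name no treatment. Females and males of BWF1 differ in sex within one cross. BWF1 females and BALB/c females differ in strain, and BWF1 males and BALB/c females in both, so that sex and strain cannot be told apart in the last pair. The labels conflict on the cells: the title and the design text give whole splenocytes, while the sample labels give spleen macrophages sorted for CD11b and F4/80. Summed over 10 genes, B cell markers (among them Ms4a1 and Cd79a) ran from 2353 to 3471 CPM (counts scaled to a common library total) and the 11 macrophage markers from 224 to 714 CPM, so the B cell sum was above the macrophage sum in each library.

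Depth was low. BWF1 female 1 had the fewest gene counts (458608) and BWF1 male 3 the most (4305003), and a single gene, Lars2, took 42.3% to 76.6% of them. Between 1.29% and 2.82% of the alignments fell in counted genes. All CPM given here are scaled by TMM factors, which offset differences in composition between libraries. The lowest factor was 0.530 (BWF1 male 1) and the highest 1.40 (BALB/c female 2). On this scale 3 counts correspond to between 0.625 CPM (BWF1 male 3) and 6.62 CPM (BWF1 female 1), and shares and such limits cover counting error only. File names carried a tag of unstated meaning, ORIG in 5 libraries (BWF1 female 2, BWF1 male 2 and all BALB/c) and RL in the other 4. The labels do not say how each library was collected, so p-values measure the spread between these libraries.

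A cell that divides first loads the MCM helicase onto origins with the help of Cdc6 and Cdt1, then unwinds and copies its DNA with polymerases, the sliding clamp Pcna and a supply of deoxynucleotides. It next condenses its chromosomes and separates them on a spindle under the control of Cdk1, Plk1 and the Aurora kinases. In textbook terms, replication genes are switched on by E2F factors as S phase begins, and mitosis genes later through promoter elements named CHR and CCAAT. In mouse spleen the dividing cells include germinal centre B cells, plasmablasts and, because the red pulp makes red cells in adult mice, erythroblasts.

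RefSeq promoter windows of 300 bases, from 250 bases before to 50 bases after the start site on GRCm38.p6, were found for 40 of the 47 genes. Exact matches were sought on both strands for E2F (TTGGCGC or TTCGCGC, which can overlap each other on opposite strands), CHR (TTTGAA) and CCAAT, counting a gene with several windows as matched if any window matched. E2F letters stood in the windows of 10 of 21 replication genes (47.6%) and 4 of 17 mitosis genes (23.5%), against 4.47% of 27025 genes in the table. CHR letters stood in 3 of 21 replication genes (14.3%) and 13 of 17 mitosis genes (76.5%), against 20.2% of all genes. CCAAT stood in the windows of 71.4% of the replication genes and 94.1% of the mitosis genes, against 41.1% of all genes. A match describes the sequence and does not show that a factor binds there.

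The 150 bases before the start site are printed for 5 of the genes called below, all of which hold a match. The stretches run 5′ to 3′ on the gene's own strand, with E2F and CHR matches in capitals. Mcm6 lies at chr1:128359706-128359855, Pola1 at chrX:93632156-93632305, Mki67 at chr7:135716380-135716529, Top2a at chr11:99024190-99024339 and Arhgap11a at chr2:113848662-113848811, all on the minus strand.
Mcm6: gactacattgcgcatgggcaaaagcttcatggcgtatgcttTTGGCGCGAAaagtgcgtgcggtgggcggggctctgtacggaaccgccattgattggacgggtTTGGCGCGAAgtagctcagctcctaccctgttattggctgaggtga
Pola1: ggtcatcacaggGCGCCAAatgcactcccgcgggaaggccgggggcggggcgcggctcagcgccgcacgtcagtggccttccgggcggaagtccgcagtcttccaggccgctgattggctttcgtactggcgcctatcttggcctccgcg
Mki67: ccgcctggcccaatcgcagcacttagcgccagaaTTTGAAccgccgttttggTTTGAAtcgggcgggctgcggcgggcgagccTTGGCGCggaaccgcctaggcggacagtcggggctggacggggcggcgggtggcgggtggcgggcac
Top2a: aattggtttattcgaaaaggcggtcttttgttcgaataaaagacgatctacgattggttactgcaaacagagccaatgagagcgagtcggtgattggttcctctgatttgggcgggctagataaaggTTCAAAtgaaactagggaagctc
Arhgap11a: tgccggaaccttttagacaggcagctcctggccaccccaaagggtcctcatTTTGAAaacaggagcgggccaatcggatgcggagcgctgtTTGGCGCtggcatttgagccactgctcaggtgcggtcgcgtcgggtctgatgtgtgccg
The Mcm6 stretch held 4 E2F matches, 1 on each strand in each of its capital runs, and the Pola1 stretch 1 on the reverse strand. Mki67 and Arhgap11a carried both kinds of letters, and the CHR match of Top2a was on the reverse strand. Of the other genes called below, Pclaf and Rrm2 had no E2F or CHR match in their windows. Clspn had an E2F match only after the start site and no CHR match.

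BWF1 females against BWF1 males asked how the lupus-prone sex differed from the other sex of the same cross. Of the 41 tested genes, 7 were higher in females and 0 lower, by edgeR's quasi-likelihood test with adjustment over all 7719 tested genes, where 2.19% of all tested genes were called (0.959% higher and 1.23% lower). Of the 7, 4 work in DNA replication (Pola1, Pclaf, Clspn and Rrm2) and 3 in mitosis (Mki67, Top2a and Arhgap11a). The log2 fold change was positive in 40 of 41 genes, against 50.1% of all tested genes. The median of the 41 genes was 0.62, against 0.00 over all tested genes. Genes of the list are not replicates of one another. By an unadjusted p under 0.05, 19 of the 41 differed, against 1266 of all 7719 tested genes. In bulk RNA, more cells of a dividing type and more RNA per cell cannot be told apart.

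Among genes of the replication fork, Pclaf, a small protein that binds Pcna, stood at 26.5, 30.6 and 30.8 CPM in BWF1 females 1 to 3, at 7.84, 5.13 and 10.6 CPM in BWF1 males and at 7.91, 8.54 and 9.91 CPM in BALB/c females. All 3 BWF1 females were above the other 6 libraries, and males and BALB/c overlapped. The female to male difference was 1.79 on the log2 scale (SE 0.35, adjusted p = 0.00537 by edgeR). Pclaf lies within Trip4, which is on the opposite strand and had 213 counts in all. The strand setting of the counting is not given, so reads of this pair cannot be told apart.

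Pola1, the catalytic subunit of the polymerase that starts new strands, stood at 50.7, 35.5 and 47.2 CPM in BWF1 females, 29.4, 16.4 and 18.7 CPM in males and 20.1, 18.4 and 15.9 CPM in BALB/c females. Again the 3 BWF1 females lay above the other 6. The difference from males was 1.09 (SE 0.27, adjusted p = 0.0340 by edgeR). Clspn, an adaptor of the checkpoint that guards stalled forks, stood at 13.2, 19.4 and 43.1 CPM in BWF1 females, 11.8, 5.13 and 4.58 CPM in males and 14.4, 17.7 and 9.91 CPM in BALB/c females. Its lowest female was close to its highest male, and BWF1 female 3 was far above all others. The fitted difference was 2.04 (SE 0.45, adjusted p = 0.0131 by edgeR), on 6 to 21 counts per female library and 5 to 22 per male library.

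Pcna itself, the clamp, went the other way from most of the list, at 48.5, 48.4 and 53.4 CPM in BWF1 females, 76.5, 58.4 and 62.5 CPM in males and 51.8, 80.2 and 67.4 CPM in BALB/c females. Each BWF1 female was below each male, but the difference of -0.38 (SE 0.21) had an adjusted p of 0.361 by edgeR. Prim1, Pole, Fen1 and Lig1, also of the fork, had differences from 0.26 to 0.93 and did not pass.

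Of the nucleotide enzymes, Rrm2, the cell-cycle-regulated subunit of ribonucleotide reductase, stood at 30.9, 37.1 and 82.1 CPM in BWF1 females, 15.7, 10.3 and 19.2 CPM in males and 18.7, 31.5 and 24.8 CPM in BALB/c females. Females lay above males with no overlap, and BALB/c in between overlapped both. The difference was 1.68 (SE 0.33, adjusted p = 0.00550 by edgeR). Its partner subunit Rrm1 differed by 0.33 and, like Tyms and Tk1, did not pass.

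None of the 8 tested licensing and helicase genes passed by edgeR, with 3 at an unadjusted p under 0.05, and their differences ran from 0.06 (Cdt1) to 1.34 (Cdc6). Of the chromatin-copying pair, Uhrf1, which guides the maintenance of DNA methylation, differed by 0.90 (SE 0.26, adjusted p = 0.0757 by edgeR).

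Mki67, the coat protein of mitotic chromosomes used as the Ki-67 marker, stood at 189.7, 172.6 and 312 CPM in BWF1 females, 112, 80.0 and 104 CPM in BWF1 males and 159.6, 307 and 152 CPM in BALB/c females. The 3 males were the 3 lowest libraries, while BWF1 and BALB/c females overlapped. The female to male difference was 1.19 (SE 0.24, adjusted p = 0.00550 by edgeR). Top2a, the topoisomerase that untangles sister chromosomes, stood at 116.9, 87.1 and 119 CPM in BWF1 females, 64.7, 39.0 and 54.4 CPM in males and 66.8, 84.8 and 59.5 CPM in BALB/c females. BWF1 females were the 3 highest libraries, with BWF1 female 2 just above BALB/c 2. The difference from males was 1.04 (SE 0.21, adjusted p = 0.00606 by edgeR).

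Arhgap11a, a GTPase-activating protein of dividing cells, stood at 17.6, 29.0 and 18.5 CPM in BWF1 females, 0, 5.13 and 7.91 CPM in males and 10.1, 11.8 and 7.93 CPM in BALB/c females. The 3 groups did not overlap, although male 3 and BALB/c 3 were nearly level. Male 1 had 0 counts, and 3 counts there would be 5.88 CPM. The fitted difference of 1.92 (SE 0.46, adjusted p = 0.0246 by edgeR) depends on how the model treats that 0. Cdk1, the kinase that drives entry into mitosis, stood at 17.6, 9.68 and 6.16 CPM in BWF1 females, 13.7, 8.20 and 8.54 CPM in males and 12.9, 9.20 and 13.9 CPM in BALB/c females. Its groups overlapped throughout, and the female to male difference was 0.21 (SE 0.44).

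Every tested mitosis gene had a positive female to male difference (17 of 17, median 0.78), as did 21 of the 22 tested replication genes (median 0.55). The 5 kinase and checkpoint genes tested (Plk1, Aurkb, Bub1b, Birc5 and Cdc20) ran from 0.36 to 0.78, and none passed by edgeR, with 1 at an unadjusted p under 0.05. Ezh2 differed by 0.19 (SE 0.29) and Brca1 by 0.42 (SE 0.42), neither past the test. In 13 of 41 genes the 3 females and 3 males did not overlap, against 18.7% of all tested genes. Of these, all but Pcna were higher in females.

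The count of 7 fell to 4 without BWF1 female 3 (Top2a, Mki67, Pclaf and Arhgap11a) and to 3 without BWF1 male 2 (Rrm2, Mki67 and Pclaf). DESeq2 gave an adjusted p to 10 of the 41 genes, of which Top2a and Mki67 were called. With the file tag as a term in the fit, 8 genes were called, the same 7 and Uhrf1. Over all tested genes, 169 were called in the main fit and 186 with the file tag. Without BWF1 female 3 there were 108, and without BWF1 male 2 there were 101.

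**Figure D1:**
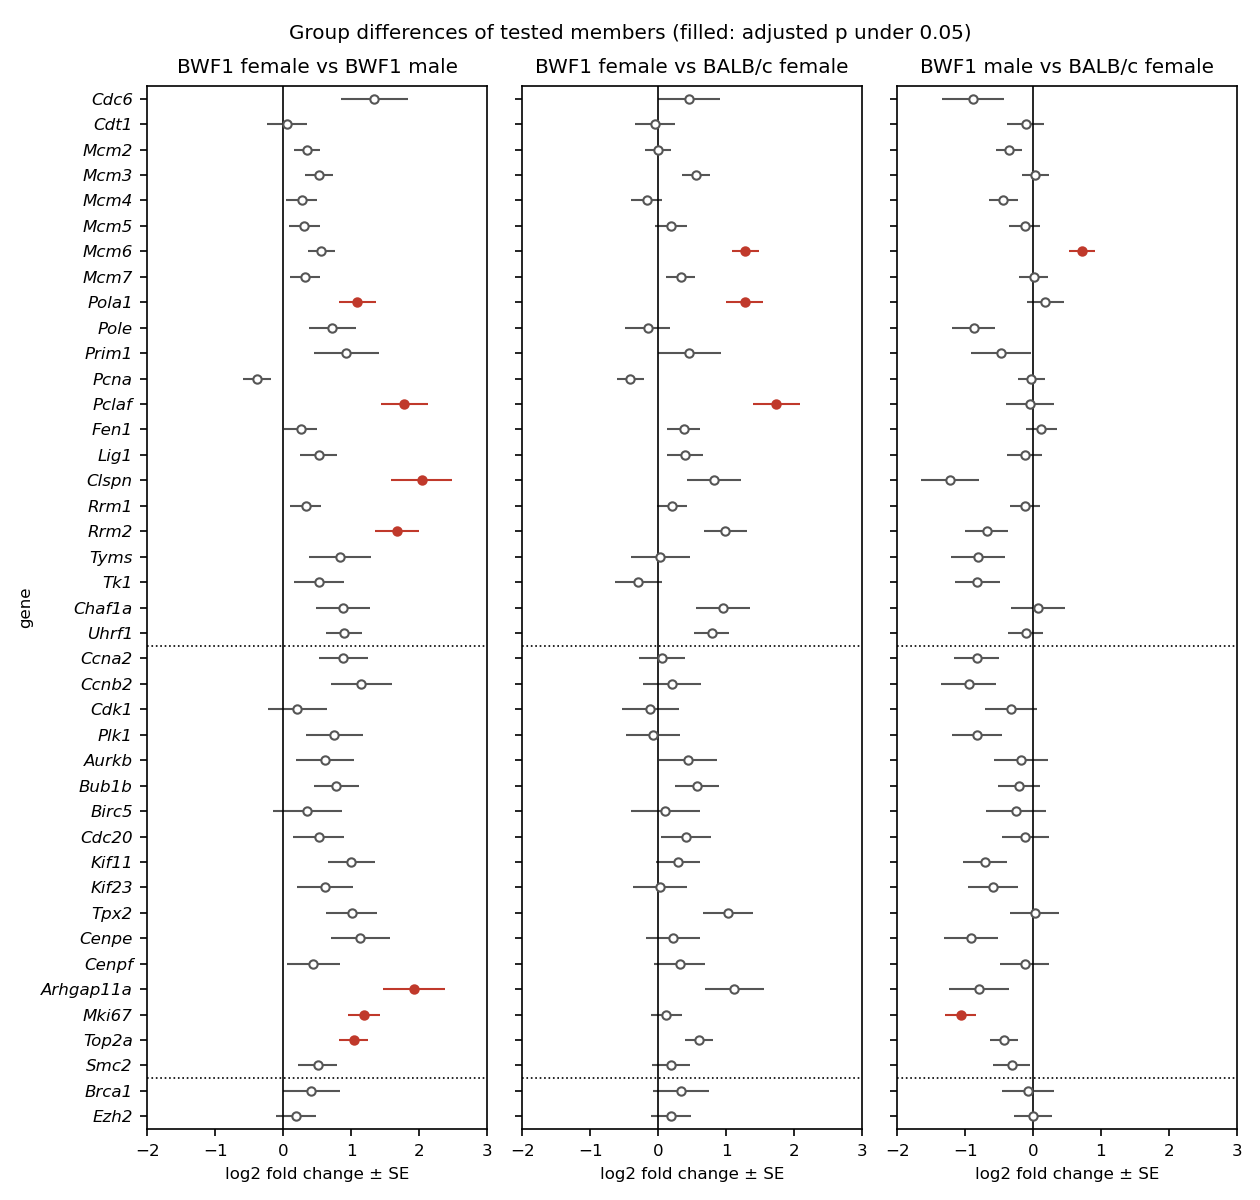
Log2 fold change with its standard error for each of the 41 tested genes in the 3 comparisons (3 libraries a group), with filled red points for an adjusted p under 0.05 by edgeR. Points lean to the right in the female to male panel and to the left in the male to BALB/c panel, and Mcm6 is filled in both comparisons with BALB/c.

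BWF1 females against BALB/c females set the lupus-prone cross beside another strain of the same sex. Of 41 genes 3 were higher (Mcm6, Pclaf and Pola1), all of replication, and 0 were lower, where 3.82% of all tested genes were called (1.79% higher and 2.03% lower). The median log2 fold change was 0.32, with 33 of 41 positive, against 49.8% of all tested genes. By an unadjusted p under 0.05, 10 of the 41 differed, against 1308 of all 7719 tested genes. None of the 17 tested mitosis genes passed by edgeR (3 at an unadjusted p under 0.05), DESeq2 or limma-voom.

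Mcm6, a subunit of the replicative helicase, stood at 101.5, 101.6 and 94.5 CPM in BWF1 females, 80.4, 50.2 and 71.4 CPM in BWF1 males and 35.9, 45.3 and 40.6 CPM in BALB/c females. The 3 groups did not overlap and ran in the order BWF1 female, BWF1 male, BALB/c. The difference between BWF1 and BALB/c females was 1.28 (SE 0.20, adjusted p = 0.000205 by edgeR). Pclaf differed by 1.74 (SE 0.35, adjusted p = 0.00319 by edgeR) and Pola1 by 1.28 (SE 0.27, adjusted p = 0.00568 by edgeR), with the levels given above.

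The mitosis gene with the lowest p was Top2a, at 0.61 (SE 0.20, adjusted p = 0.101 by edgeR), and its groups did not overlap. Mki67 differed by 0.12 (SE 0.23), Cdk1 by -0.11 (SE 0.43), Rrm2 by 0.99 (SE 0.32), Pcna by -0.41 (SE 0.20) and Ezh2 by 0.19 (SE 0.29), none past the test. In 8 of 41 genes the groups did not overlap, against 21.2% of all tested genes. With the file tag as a term Mcm6 alone was called. All BALB/c libraries carry the tag ORIG, so in both comparisons with BALB/c the tag and the strain share part of their variation. With libraries scaled by their totals only, 0 were called (3 at an unadjusted p under 0.05) and the members' median was 0.00. That scaling moved the median of all genes by -0.29 in this comparison, and the members stood 0.29 above it.

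BWF1 males against BALB/c females compared the groups that served as non-prone. Mcm6 was higher in males by 0.72 (SE 0.19, adjusted p = 0.0358 by edgeR) and Mki67 was lower, with a log2 fold change of -1.07 (SE 0.23, adjusted p = 0.00694 by edgeR), 2 of 41 genes where 3.52% of all tested genes were called (1.67% higher and 1.85% lower). The median was -0.25, with 8 of 41 positive, against 49.7% of all tested genes. By an unadjusted p under 0.05, 12 of the 41 differed, against 1260 of all 7719 tested genes. Among mitosis genes 1 of 17 was positive (median -0.43), and among replication genes 6 of 22 (median -0.12). In 10 genes the groups did not overlap, against 23.5% of all tested genes. Scaling by library totals moved the median of all genes by -0.44, and 1 of 41 members was then positive.

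Tk1, a salvage enzyme for thymidine, had a difference of -0.82, Tyms, which makes thymidylate, -0.81 and Cdc6 -0.89. In each of these the males lay below BALB/c with no overlap, but adjusted p by edgeR ran from 0.192 to 0.348. They are among the 10 of 41 genes without overlap, a trait of 23.5% of all tested genes. Of those 10 only Mcm6 was higher in males. Top2a differed by -0.43, Rrm2 by -0.69, Cdk1 by -0.32, Pcna by -0.03 and Ezh2 by 0.00, none past the test. The call of Mki67 was lost without BALB/c female 2, its highest BALB/c library, where the difference was -0.66 (adjusted p = 0.140 by edgeR). The call of Mcm6 was lost when any one of BWF1 males 1 or 3 or the 3 BALB/c libraries was left out. The differences then ran from 0.60 to 0.81. The Mcm6 call was also lost with the file tag as a term, with the replicate block and with libraries scaled by totals only.

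Because Mcm6 works in a ring with Mcm2, Mcm3, Mcm4, Mcm5 and Mcm7, its share of the 6 subunits' counts was also taken, in which library scaling cancels. Mcm6 was chosen for this after its values were seen, so the shares are a description. It made up 24.9%, 25.3% and 20.8% of the counts in BWF1 females, 22.2%, 20.2% and 20.8% in BWF1 males and 11.6%, 13.2% and 12.6% in BALB/c females. All 6 BWF1 libraries were above the 3 BALB/c libraries. The 95% Wilson intervals of BALB/c reached at most 16.7%, those of BWF1 began at 15.7% or above, and the BWF1 shares rest on 185 to 1649 counts a library. Group means were 23.7% ± 2.48 (SD, n = 3), 21.1% ± 0.98 and 12.5% ± 0.79. The 6 shares add up to the whole, so a higher share of Mcm6 lowers the others. Mcm2 held 16.2% ± 1.68, 16.9% ± 1.52 and 21.1% ± 0.76 (SD, n = 3), while its own level was 68.6 CPM in both BWF1 and BALB/c females, a log2 difference of 0.00 (SE 0.19). Mcm4 stood at 11.9% ± 1.49, 13.1% ± 4.77 and 17.3% ± 1.12, and BWF1 male 2 (16.1%) lay within the BALB/c range. Mcm3, Mcm5 and Mcm7 overlapped between BWF1 and BALB/c.

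**Figure D2:**
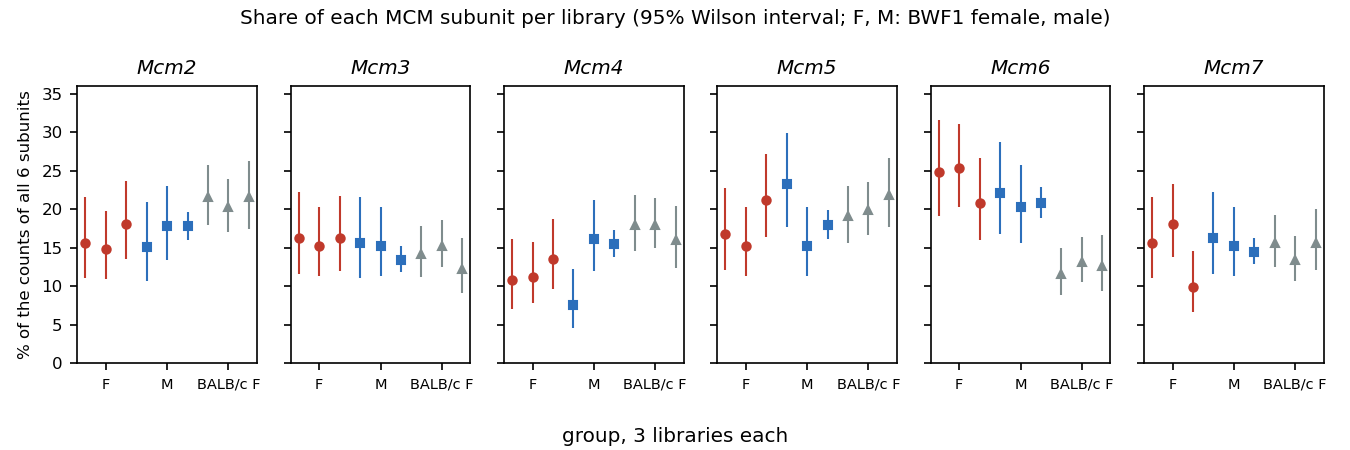
Percent of the summed Mcm2 to Mcm7 counts taken by each subunit in each library, with 95% Wilson intervals for counting error (F and M are BWF1 females and males). In the Mcm6 panel the 6 BWF1 points lie between 20.2% and 25.3% and the 3 BALB/c points between 11.6% and 13.2%.

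To set replication beside mitosis, the mean log2(CPM + 1) over the tested genes of each kind was taken per library, as a description. The replication level was 4.98, 5.02 and 5.54 in BWF1 females, 4.73, 4.30 and 4.57 in males and 4.74, 4.88 and 4.77 in BALB/c females. All BWF1 females were above the other 6 libraries. The mitosis level was 4.35, 4.36 and 4.91 in BWF1 females, 3.93, 3.47 and 3.85 in males and 4.15, 4.54 and 4.07 in BALB/c females. Males were the 3 lowest libraries for both kinds, although for replication male 1 (4.73) was close to BALB/c 1 (4.74). For mitosis BALB/c 2 stood among the BWF1 females.

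Mitosis genes took 38.4%, 38.5% and 41.0% of the counts of both kinds in BWF1 females, 34.2%, 32.0% and 32.8% in males and 39.2%, 46.0% and 36.8% in BALB/c females. Each male was below each female of either strain. Without Mki67, the mitosis gene with the most counts (not corrected for length), the shares were 29.0% to 30.1% in BWF1 females, 24.5% to 27.3% in males and 27.2% to 31.8% in BALB/c females. Males then still lay below BWF1 females, but male 1 overlapped BALB/c 3. The share is within a library and needs no scaling.

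Erythroid content differed widely between the same libraries. The summed level of 23 erythroid markers (haemoglobin genes, Alas2, Slc4a1 and others) was 1200.0, 969.6 and 3191 CPM in BWF1 females, 1638, 297 and 342.5 CPM in males and 1831, 5068 and 2111 CPM in BALB/c females. Hba-a2 was at 0 counts in both BWF1 groups, and Ahsp was not analysed here. Within each group the library richest in erythroid RNA (BWF1 female 3, BWF1 male 1 and BALB/c 2) also had the highest replication and the highest mitosis level. Across groups the order differed: BWF1 male 1 had more erythroid RNA than BWF1 females 1 and 2 but lower replication and mitosis levels. BALB/c 2 had the most erythroid RNA of all and a replication level below each BWF1 female.

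**Figure D3:**
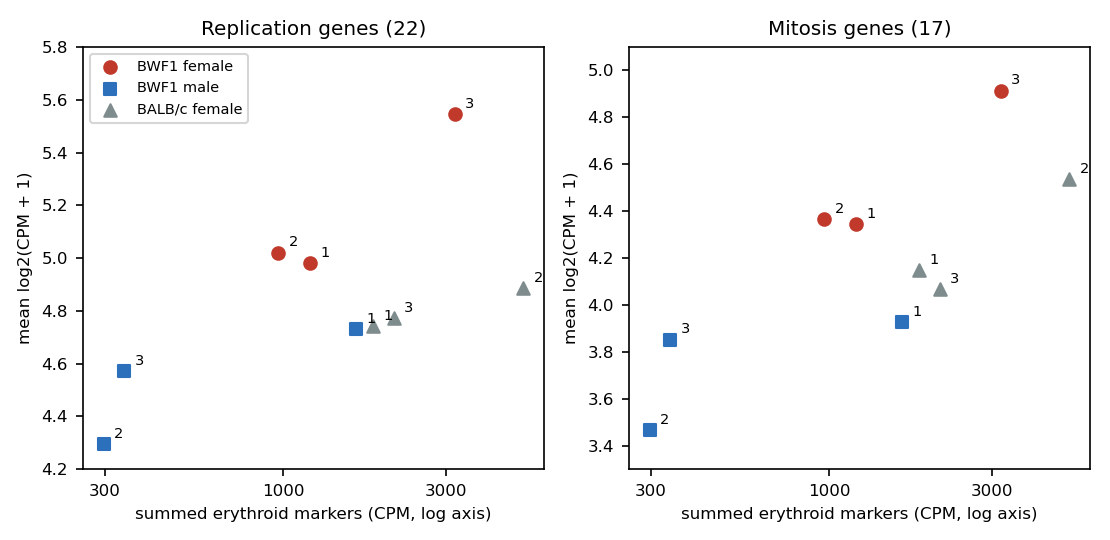
Mean log2(CPM + 1) of the 22 tested replication genes (left) and 17 tested mitosis genes (right) in each library against its summed erythroid markers in CPM on a log axis; numbers are replicates. BWF1 female 3 is at the top of both panels, and BALB/c 2, with 5068 CPM of erythroid markers, is below all 3 BWF1 females for replication and above all but BWF1 female 3 for mitosis.

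The erythroid sum was then entered in the fit beside the group, which gives each gene's change per doubling of erythroid RNA within groups. Of the 41 tested genes, Mki67 was called, higher by 0.35 (SE 0.08, adjusted p = 0.0229 by edgeR), where 0.777% of all tested genes were called (0.713% rising and 0.0648% falling). The slope was positive in 35 of 41 genes, against 49.4% of all tested genes. The median of the 41 genes was 0.22, against 0.00 over all tested genes. An unadjusted p under 0.05 was found for 13 of the 41 and for 746 of all 7719 tested genes. Mitosis genes had a median of 0.31 (15 of 17 positive) and replication genes 0.19 (19 of 22 positive). No replication gene passed by edgeR (6 at an unadjusted p under 0.05) or limma-voom, and Uhrf1 had the lowest p, at 0.34 (SE 0.10, adjusted p = 0.179 by edgeR).

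Pclaf had a slope of 0.01 (SE 0.19), Cdk1 -0.03 (SE 0.21), Arhgap11a -0.33 (SE 0.25), Pcna 0.17 (SE 0.09), Ezh2 0.14 (SE 0.14) and Mcm6 0.12 (SE 0.09). Those of Top2a (0.22, SE 0.09), Rrm2 (0.35, SE 0.14) and Clspn (0.58, SE 0.18) did not pass the adjusted threshold either. The Mki67 call rested on few libraries: it was lost when any one library other than BWF1 male 1 or BWF1 male 3 was left out, with slopes from 0.25 to 0.35. Its lowest slope, 0.25, came without BALB/c 2, and its highest, 0.60, without BWF1 male 1.

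With the erythroid sum held in the fit, 1 of 41 genes remained called between BWF1 females and males (Arhgap11a, 2.54, SE 0.63, adjusted p = 0.0335 by edgeR), where 1.27% of all tested genes were called (0.35% higher). Mki67 had a difference of 0.59 (adjusted p = 0.206 by edgeR) in place of 1.19, Clspn 1.01 in place of 2.04, Rrm2 1.00 in place of 1.68, Top2a 0.70 (adjusted p = 0.137 by edgeR) in place of 1.04, and Pola1 0.78 (adjusted p = 0.263 by edgeR) in place of 1.09. Pclaf kept nearly the same size, 1.77 (SE 0.48, adjusted p = 0.0557 by edgeR). The median was 0.36 in place of 0.62, with 32 of 41 positive, against 50.9% of all tested genes. At an unadjusted p under 0.05 there were 8 of the 41 and 1105 of all 7719 tested genes.

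Between BWF1 and BALB/c females the same term raised the count from 3 to 9 genes (Mcm3, Mcm6, Pola1, Pclaf, Clspn, Rrm2, Uhrf1, Tpx2 and Top2a), all higher, where 5.82% of all tested genes were called (2.81% higher). Tpx2, a spindle assembly factor, then differed by 1.36 (SE 0.36, adjusted p = 0.0169 by edgeR) and Top2a by 0.79 (SE 0.20, adjusted p = 0.0115 by edgeR). Between BWF1 males and BALB/c females 0 were called by edgeR (5 at an unadjusted p under 0.05), where 1.84% of all tested genes were. Mki67 there was at -0.18 (adjusted p = 0.826 by edgeR) and Mcm6 at 1.00 (adjusted p = 0.0510 by edgeR). The males hold the 2 lowest erythroid sums, so the term and the group share part of their variation. Erythroid markers also differed by strain with the term in the fit. Between BWF1 and BALB/c females, 2 of 20 tested markers were called higher (Hba-a1 and Hbb-bt) and 3 lower (Hba-a2, Hemgn and Rhd). The sum thus differs in make-up between these strains.

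**Figure D4:**
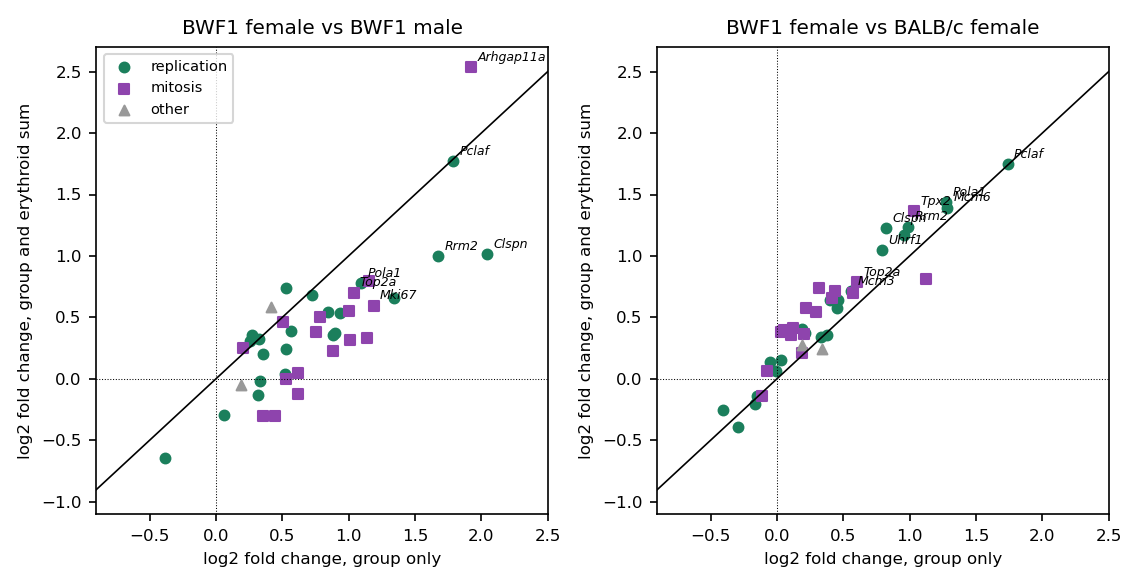
Log2 fold change of each of the 41 tested genes with group alone (horizontal) and with the erythroid sum added to the fit (vertical); the solid line marks equal values, and names are given where either fit called the gene. Against males the median falls from 0.62 to 0.36, and against BALB/c females the 9 genes called with the term lie at or above the line.

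Other cell markers differed between the groups as well, and their part in these results was not tested. The 8 germinal centre B cell markers summed to between 111 and 159 CPM in BWF1 females, 59.5 and 83.3 CPM in males and 54.6 and 67.4 CPM in BALB/c females, with 0 of 8 at 0 counts in any group. The 8 plasma cell markers ran from 571 to 849 CPM in BWF1 females, 1271 to 2101 CPM in males and 691 to 835 CPM in BALB/c females. Macrophage markers ran from 224 to 240.4, 483 to 714 and 347 to 409 CPM, T cell markers from 436 to 520.5, 763 to 838 and 497 to 706 CPM, and NK cell markers from 86.0 to 90.3, 272 to 283 and 111 to 147 CPM in the same order. All 3 of these sums were highest in males, with no overlap with the other groups. The 6 granulocyte progenitor markers summed to 43.1 to 79.4 CPM in BWF1 females, 21.5 to 64.7 CPM in males and 17.7 to 34.7 CPM in BALB/c females. Neutrophil markers ran from 163 to 402, 292 to 696 and 283 to 384.5 CPM, and megakaryocyte markers, with Gp1bb at 0 in every group, from 41.1 to 46.8, 23.6 to 43.1 and 12.9 to 17.1 CPM.

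Genes of the same pathway that are not among the 47 were grouped in 3 further lists. Of 52 other replication genes (origin recognition, polymerase and clamp-loader subunits, histone chaperones and E2F factors) 36 were tested. None passed between the groups by edgeR, with 4, 1 and 5 at an unadjusted p under 0.05 in females against males, females against BALB/c and males against BALB/c. Over all 7719 tested genes, 1266, 1308 and 1260 had such a p in the same order. The medians of the 36 genes were 0.35, 0.07 and -0.25. DESeq2 called 0 of them in each comparison and limma-voom called 1, E2f2, lower in males than in BALB/c.

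Of 61 other mitosis genes 35 were tested, with medians of 0.77, 0.25 and -0.43 in the same order. Between BWF1 females and males 0 passed by edgeR, with 12 at an unadjusted p under 0.05, and limma-voom called 2 (Foxm1 and Prc1) and DESeq2 0 of the 6 with an adjusted p. Incenp, the scaffold of the chromosomal passenger complex, stood at 24.3, 56.5 and 84.2 CPM in BWF1 females and 18.7, 32.2 and 23.8 CPM in BALB/c females. These groups overlapped, and the difference was 1.14 (SE 0.32, adjusted p = 0.0433 by edgeR). In that comparison limma-voom and DESeq2 each called 0 of the 35 genes. Between males and BALB/c 0 passed by edgeR, with 9 at an unadjusted p under 0.05, by limma-voom 3 and by DESeq2 0.

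Of 17 brakes on the cell cycle 12 were tested. Rb1, which holds E2F factors in check, stood at 57.3, 64.5 and 80.1 CPM in BWF1 females and 31.4, 43.1 and 41.9 CPM in males, a difference of 0.77 (SE 0.21, adjusted p = 0.0442 by edgeR) with no overlap. limma-voom also called Rb1, but edgeR with no filter, edgeR with the erythroid sum as a term and DESeq2 (0 of the 5 brakes with an adjusted p) did not. Cdkn1b, the inhibitor p27, stood at 59.5, 45.2 and 53.4 CPM in BWF1 females and 91.3, 83.5 and 82.3 CPM in BALB/c females, with no overlap and a log2 fold change of -0.71 (SE 0.19, adjusted p = 0.0271 by edgeR). It was called by limma-voom and not by DESeq2. The brakes' medians were -0.24, -0.25 and -0.01. With erythroid RNA, E2f2 had a slope of 0.51 (SE 0.12, adjusted p = 0.0203 by edgeR) and Cdc25b, a phosphatase that activates Cdk1, 0.40 (SE 0.09, adjusted p = 0.0192 by edgeR).

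Of the 47 genes, 6 had too few reads for the filter, and their counts are a description. Ccnb1, the cyclin partner of Cdk1, had 3, 10 and 1 counts in BWF1 females and 4, 2 and 19 in males. In BALB/c females it had 2, 8 and 0. Libraries differ in depth, and in CPM Ccnb1 stood at 6.62, 16.1 and 2.05 in BWF1 females. It stood at 7.845, 2.05 and 3.96 CPM in males and at 1.44, 5.26 and 0 CPM in BALB/c females. Cdc45, a helicase cofactor, had 74 counts in all, Gins1 32, Gins2 41, Aurka 80 and Bub1 53, and in each of these 5 the deepest library, BWF1 male 3, held the most. With no filter on low counts all 47 genes entered the fit, and 9 were called between BWF1 females and males (the 7 above with Cdc6 and Uhrf1), where 1.99% of 15276 genes were. The difference was then positive in 46 of 47 genes, against 45.4% of all genes in that fit.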

How the data were processed

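RNA was sequenced from 9 libraries (3 groups of 3). Values used are raw read counts per gene, as the authors deposited them, with HTSeq summary lines kept out of all totals. FastQC 0.10.1, STAR 2.6 and the build mm10 are named per the submitters' processing notes, and ribosomal RNA was depleted, per the labels' protocols. The counting's annotation, strand setting and version are not given in the sources used here. Symbols and coordinates came from GENCODE M21, which matched 21939 of 21965 identifiers, and promoters from RefSeq.

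In R 4.3.3 with edgeR 4.0.16, filterByExpr (minimum count 10) kept 7719 genes. TMM scaling and a quasi-likelihood fit over all 9 libraries with group as the term (prior degrees of freedom 19.4) gave F tests, with Benjamini-Hochberg adjustment over all tested genes and calls at adjusted p under 0.05. The standard error is the log2 fold change divided by the square root of F. The erythroid slope is the coefficient of log2(summed marker CPM + 1) beside group. The fit was tested on simulated data. Replicates differed beyond counting noise (chi-square per degree of freedom 1.23 to 2.60).

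Alternatives were library scaling, filters, dispersion settings, limma-voom (limma 3.58.1), DESeq2 1.42.0, the file tag, the erythroid sum, replicate block and leaving out each library. The members and lists were chosen with earlier results of these data known. Named are all called members, the lowest p of a kind with none called, Mki67, Pcna, Mcm6, Top2a, Rrm2, Cdk1, Ccnb1 and Ezh2, and up to 3 called genes of the other lists per comparison. Other members named as examples were picked after their values were seen.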

Additional observations from a re-analysis of the deposited data

How the results depend on the processing

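Between BWF1 females and males 169 genes were called in all. With libraries scaled by totals only there were 59, with no filter 304, with only the 2 groups fitted 98, with the erythroid sum as a term 98 and by DESeq2 105. With the file tag as a term there were 186 and by limma-voom 246. The members called, 7, became 1 with the erythroid sum and 2 by DESeq2, which gave 31 of the 41 no adjusted p. Leaving out a library gave 58 to 198 genes (58 without BWF1 male 3) and 3 to 9 members.

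Between BWF1 and BALB/c females 295 genes were called, against 130 by totals only, 160 with the file tag, 449 with the erythroid sum and 169 by DESeq2. The members called, 3, became 0, 1 and 9 under the first 3 of these. By limma-voom 247 genes were called in all. Leaving out a library gave 184 to 370 genes and 3 to 4 members.

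Between BWF1 males and BALB/c females 272 genes were called, against 433 without Lars2, 510 with no filter, 484 with the legacy quasi-likelihood fit (chosen after seeing the data), 153 with the file tag, 142 with the erythroid sum and 650 by limma-voom. The members called, 2, became 1 with a robust dispersion (Mcm6) and 1 with the file tag (Mki67). The count became 0 with the erythroid sum and by DESeq2, and 7 by limma-voom. By totals only, Mcm6 was not called, and Mki67, Ccna2 and Clspn were called lower. Leaving out a library gave 119 to 393 genes and 0 to 3 members. Robust dispersion ended both Mki67 calls (females against males, and males against BALB/c).

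For the erythroid slope 60 genes were called, 26 by totals only and 34 to 79 with a library left out, and the 1 member became 0 by totals only and 0 to 1 with a library left out. Scaling by totals moved the median of all genes by 0.15, -0.29 and -0.44 in the 3 comparisons, and split the calls into 45 higher and 14 lower, 23 and 107, and 26 and 248, against 74 and 95, 138 and 157, and 129 and 143. The difference in mean level went from 0.382 to 0.116 for replication between BWF1 and BALB/c females, from -0.268 to -0.783 for replication and from -0.502 to -0.991 for mitosis between BWF1 males and BALB/c females. Leaving out a library gave 0.201 (without BWF1 female 3) to 0.483 for replication and, from 0.291, 0.105 (without BWF1 female 3) to 0.433 for mitosis between BWF1 and BALB/c females. Replication between males and BALB/c was -0.149 without BWF1 male 2.

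Same-numbered libraries did not deviate together (correlations from -0.091 to 0.059), so the numbers were not taken to pair them. With the replicate block, 118, 255 and 240 genes and 7, 3 and 1 members were called in the 3 comparisons, without Mcm6 in males against BALB/c.

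Of the members called by edgeR in each comparison, none changed sign under the alternatives that gave them an adjusted p. DESeq2 gave none to Pola1, Rrm2, Pclaf, Clspn and Arhgap11a between BWF1 females and males. Clspn between BWF1 males and BALB/c females, not called at -1.22, was called lower with no filter (-1.24). It was also called lower by totals only, without Lars2, with the legacy fit, by limma-voom and without BWF1 male 1. With the erythroid sum as a term it stood at 0.21 (adjusted p = 0.908 by edgeR). The causes of the shifts were not tested. At 458608 to 4305003 counts a library, 6 members could not be tested.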
